A study of Mus musculus with 6 samples.

Results

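R-spondins are secreted proteins that raise the sensitivity of a cell to Wnt ligands. They bridge a receptor of the Lgr family (Lgr4, Lgr5 or Lgr6) and one of the membrane ubiquitin ligases Znrf3 and Rnf43, which otherwise mark Frizzled receptors for removal from the cell surface. With the ligase cleared, Frizzled and its co-receptors accumulate and a given amount of Wnt gives a stronger response. Stromal cells are a known source of R-spondins for neighboring epithelium, and R-spondin signaling is known for its part in mammary ductal growth. The 9 genes of this module (*Rspo1* to *Rspo4*, *Lgr4* to *Lgr6*, *Znrf3* and *Rnf43*) were found by gene identifier among the 27179 genes of a bulk RNA-seq count table, and all 9 were present.

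The libraries came from CD34hi and CD34lo fibroblasts of the mammary glands of pubertal female FVB/N mice at 6 weeks of age, with no transgene and no treatment in either group. Both populations were sorted as Lin-CD24-Pdgfra+ cells out of one pool of 2 mice, so that the 3 pools gave 3 libraries per population and 6 in all. The comparison asks which parts of the R-spondin module differ between the CD34hi and CD34lo compartments of the same glands. In bulk RNA, fewer cells expressing a gene and less RNA per cell cannot be told apart.

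The total counted on genes was between 28764779 and 52402410 per library. *Cd34* itself lay between 2490 and 2639 CPM (counts scaled by library size, with TMM factors) in the CD34hi libraries and between 476 and 793 CPM in the CD34lo libraries. The fibroblast markers *Pdgfra*, *Col1a1*, *Col1a2*, *Dcn*, *Lum* and *Thy1* summed to between 28612 and 36026 CPM in CD34hi and between 48781 and 54585 CPM in CD34lo libraries. Of these 6 genes, 5 were higher in CD34lo and *Dcn* did not pass. Of the luminal epithelial list, 1 of 5 genes (*Krt19*) was higher in CD34hi fibroblasts, and the list summed to between 63.9 and 91.9 CPM in CD34hi and between 30.8 and 43.6 CPM in CD34lo libraries. Summed CPM of the basal epithelial list ranged from 10.2 to 19.4 in CD34hi and from 4.06 to 4.94 in CD34lo, with 1 of 5 genes (*Oxtr*) higher in CD34hi. For the endothelial list the ranges were 533 to 691 and 47.4 to 79.1, set by *Tek* and *Kdr*, whereas *Pecam1*, *Cdh5* and *Emcn* were higher in CD34lo. The leukocyte list spanned 16.3 to 18.4 and 4.47 to 9.53, with 1 of 2 tested genes (*Cd3e*) higher in CD34hi and *Ptprc* between 1 and 13 counts per library. Pericyte markers summed to 36.8 to 49.1 in CD34hi and 68.9 to 93.2 in CD34lo, with 4 of 5 genes higher in CD34lo and 1 (*Kcnj8*) higher in CD34hi. Schwann cell markers summed to 6.78 to 7.03 in CD34hi and 15.6 to 20.9 in CD34lo, with 3 of 4 tested genes higher in CD34lo and *Sox10* between 6 and 28 counts per library. Adipocyte markers stayed between 0.179 and 1.81 CPM in all libraries, with the 1 tested gene (*Plin1*) higher in CD34lo. The keratinocyte list summed to 14.6 to 20.1 in CD34hi and 3.85 to 7.44 in CD34lo, with 2 of 3 tested genes higher in CD34hi and *Krt1* at 0 counts in all libraries.

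The module was split between the populations. *Rspo1*, *Rspo4* and *Znrf3* were higher in CD34lo fibroblasts, and *Rspo2*, *Rspo3* and *Lgr4* were higher in CD34hi fibroblasts, each with a Benjamini-Hochberg adjusted p below 0.05 when all tested genes were fitted in edgeR by its quasi-likelihood method. *Lgr5* was lower in CD34hi in every pool but did not pass in this fit, which had no term for the pool. *Lgr6* overlapped between the populations, and *Rnf43* had too few counts to be tested. So 8 of the 9 genes were tested, 6 of them were called, and 7 had CD34hi and CD34lo libraries that did not overlap. Over all 15219 genes tested, 35.6% were called (16.9% higher in CD34hi and 18.7% higher in CD34lo) and 50.1% did not overlap between the populations. With the mouse pool as a block, *Lgr5* also passed (adjusted p = 0.00867 in edgeR). That fit called 7 of the 8 tested genes of the module and 40.5% of all genes tested. *Rspo4* and *Lgr6* passed the filter on low counts only through their CD34lo libraries.

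**Figure D1:**
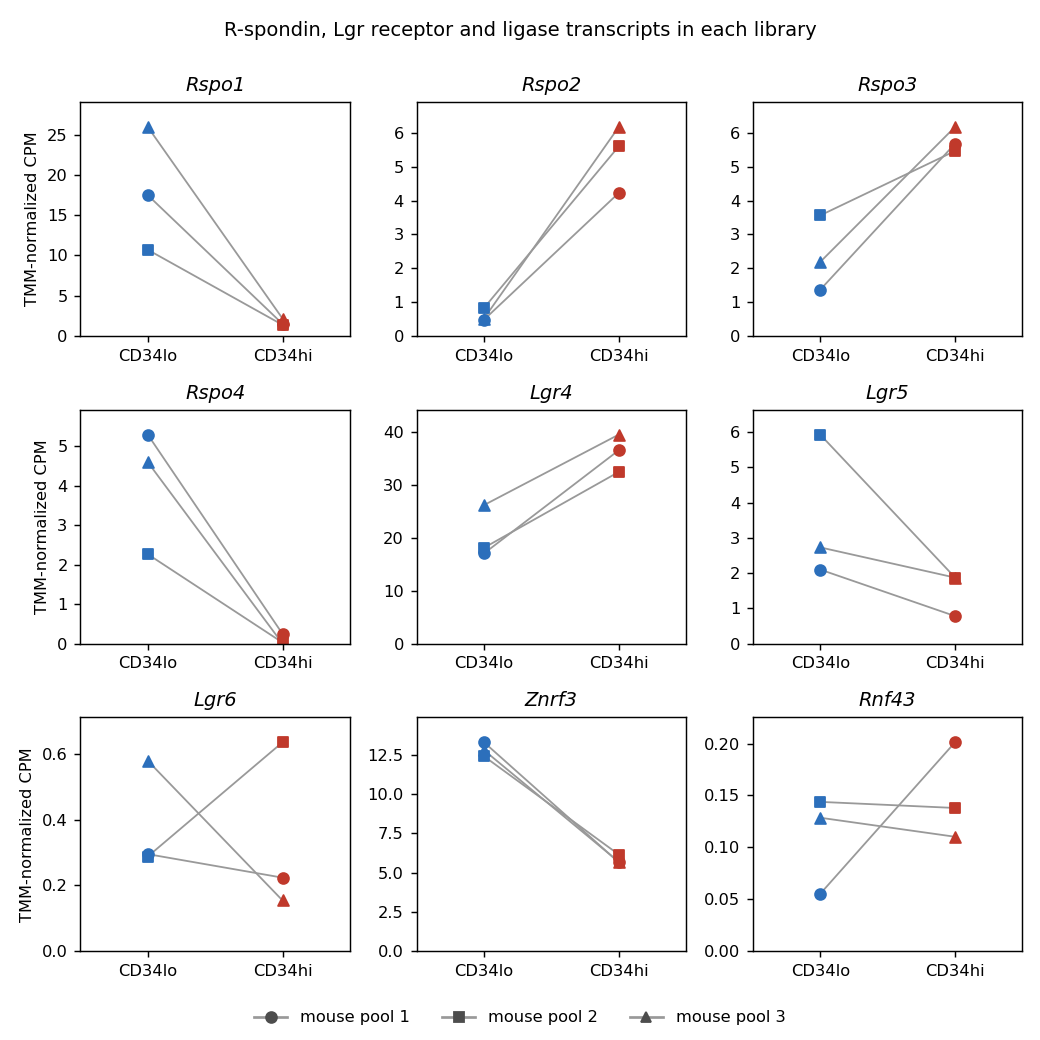
TMM-normalized CPM (y axis, from 0, a separate scale for each gene) of the 9 genes in each CD34lo (blue) and CD34hi (red) library, with a line between the libraries of the same mouse pool. The lines of *Rspo1*, *Rspo4*, *Lgr5* and *Znrf3* fall towards CD34hi in 3 of 3 pools, those of *Rspo2*, *Rspo3* and *Lgr4* rise in 3 of 3, and those of *Lgr6* and *Rnf43* cross.

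Among the ligands, *Rspo1* (gene 192199, GRCm38/mm10 chromosome 4, 124986430 to 125009099) stood out in CD34lo fibroblasts. It had 17.5, 10.7 and 26.0 CPM in the CD34lo libraries of pools 1, 2 and 3, and 1.50, 1.38 and 2.16 CPM in the CD34hi libraries of the same pools. The lowest CD34lo library was thus well above the highest CD34hi library, and the fold within a pool was 11.7, 7.77 and 12.0. The means were 18.1 ± 7.64 CPM (SD, n = 3) in CD34lo and 1.68 ± 0.421 CPM (SD, n = 3) in CD34hi, a log2 fold change (CD34hi vs CD34lo) of -3.42 (standard error, SE, 0.34; adjusted p = 0.000105 in edgeR).

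*Rspo4* (gene 228770, chromosome 2, 151842927 to 151874668), the R-spondin best known from nail development, followed the same pattern at a lower level. Its CD34lo libraries held 287, 63 and 143 counts, or 5.29, 2.27 and 4.60 CPM. The CD34hi libraries held 11, 1 and 0 counts, or 0.246, 0.0276 and 0 CPM, and the 0 in pool 3 allows up to 0.0661 CPM (3 counts). *Rspo4* RNA was therefore close to the limit of detection in CD34hi fibroblasts and readily counted in CD34lo fibroblasts. The CD34lo level was 21.5 times the CD34hi level in pool 1 and 82.1 times in pool 2, where CD34hi held 1 count. In pool 3 it was 69.5 times the limit of 3 counts, without the counting error of the CD34lo library. Over the summed counts of each population (493 against 12), the ratio of CD34lo to CD34hi was 45.9 with a 95% interval of 26.0 to 89.4 (exact binomial, counting error only). The fitted log2 fold change was -5.39 (SE 0.77, adjusted p = 0.000752 in edgeR), which is a fitted value and no bound. It ranged from -8.01 (without CD34hi replicate 1) to -4.69 (without pool 3) over its 17 alternatives and passed in each.

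The sequence before the start of *Rspo1* and of *Rspo4* is shown because both genes were higher in CD34lo libraries; it runs 5′ to 3′ on the plus strand over the 250 bases that end at the start site (RefSeq, GRCm38.p6), with matches to the GC box GGGCGG on either strand in capitals.
Rspo1, chr4:124986180-124986429: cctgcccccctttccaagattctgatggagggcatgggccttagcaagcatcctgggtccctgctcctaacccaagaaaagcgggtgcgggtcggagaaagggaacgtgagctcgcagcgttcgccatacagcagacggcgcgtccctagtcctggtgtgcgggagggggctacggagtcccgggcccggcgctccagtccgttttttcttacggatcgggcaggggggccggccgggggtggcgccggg
Rspo4, chr2:151842677-151842926: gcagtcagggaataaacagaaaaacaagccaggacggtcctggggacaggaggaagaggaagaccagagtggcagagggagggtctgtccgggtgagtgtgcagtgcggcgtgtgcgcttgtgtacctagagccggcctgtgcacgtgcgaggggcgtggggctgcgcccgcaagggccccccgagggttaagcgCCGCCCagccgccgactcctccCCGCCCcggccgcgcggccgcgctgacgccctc

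Both windows were rich in G and C. Over the full 300 bases (250 before to 50 after the start), GC content was 69.0% for *Rspo1* and 71.0% for *Rspo4*, against a median of 52.7% and a middle range of 45.7% to 61.7% over 32851 promoter windows. The GC box began 55 and 33 bases before the *Rspo4* start, both on the minus strand, and was not found at *Rspo1*; it is held by 35.7% of all windows. The TCF/LEF core CTTTGA (16.0% of windows), the TATA motif TATAAA (13.6%) and the GLI motif TGGGTGGTC (0.253%) were searched on both strands and were in neither window. The reference table also held windows for *Lgr4* (58.3% GC), *Lgr6* (67.7%) and *Rnf43* (46.7% and 44.3%), but not for *Rspo2*, *Rspo3*, *Lgr5* and *Znrf3*. The GC box was also in the window of *Lgr6*, which did not differ in edgeR, and not in those of *Lgr4* and *Rnf43*.

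*Rspo2* (gene 239405, chromosome 15, 43020795 to 43170818) and *Rspo3* (gene 72780, chromosome 10, 29453106 to 29535867), which are known as common integration sites of mouse mammary tumor virus, went the other way. *Rspo2* had 4.23, 5.60 and 6.17 CPM in the CD34hi libraries of pools 1, 2 and 3, and 0.480, 0.827 and 0.514 CPM in the CD34lo libraries. The populations did not overlap, and the CD34hi level was 8.81, 6.77 and 12.0 times the CD34lo level within the pools. The means were 5.33 ± 1.00 CPM (SD, n = 3) and 0.607 ± 0.191 CPM (SD, n = 3), a log2 fold change of 3.16 (SE 0.30, adjusted p = 7.42e-05 in edgeR).

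*Rspo3* differed less and varied more. Its CD34hi libraries were close together at 5.68, 5.46 and 6.17 CPM, and its CD34lo libraries were spread over 1.36, 3.56 and 2.19 CPM. All CD34hi libraries were above all CD34lo libraries, but the fold within a pool was 4.16 in pool 1, 1.53 in pool 2 and 2.82 in pool 3. The log2 fold change was 1.31 (SE 0.32, adjusted p = 0.0125 in edgeR). The call was lost without pool 1 (log2 fold change 1.05, adjusted p = 0.0519) and without pool 3 (1.22, adjusted p = 0.0927), and it was kept when any single library was left out, with adjusted p-values from 0.00201 to 0.0450 in edgeR.

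The ligand genes also differed in how their CD34lo libraries were ordered. The CD34lo library of pool 2 had the lowest *Rspo1* and *Rspo4* and the highest *Rspo2* and *Rspo3* of its population. The same library had the highest *Cd34* of the CD34lo libraries, at 793 CPM against 476 in pool 1 and 632 in pool 3. The part of *Cd34* level in the order of the ligands was not tested. Without this library the log2 fold changes were -3.69 for *Rspo1*, 3.42 for *Rspo2*, 1.72 for *Rspo3* and -5.68 for *Rspo4*, and all 4 stayed under an adjusted p-value of 0.05 in edgeR.

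To compare ligands with one another, levels were divided by gene length (RPKM, CPM per kb of counted gene). In CD34lo fibroblasts *Rspo1* was the leading R-spondin, with 9.85 ± 4.17 RPKM (SD, n = 3), followed by *Rspo4* with 1.71 ± 0.669, *Rspo3* with 0.989 ± 0.463 and *Rspo2* with 0.182 ± 0.0573. The ranges of *Rspo4* and *Rspo3* overlapped in CD34lo libraries, and those of *Rspo1* and *Rspo2* were apart from both. In CD34hi fibroblasts the order was *Rspo3* with 2.41 ± 0.152 RPKM, *Rspo2* with 1.60 ± 0.300, *Rspo1* with 0.916 ± 0.230 and *Rspo4* with 0.0385 ± 0.0568, and none of these ranges overlapped. *Rspo1* made up 75.8% ± 7.02 of the summed R-spondin RPKM in CD34lo libraries and 18.3% ± 2.57 in CD34hi libraries (SD, n = 3). *Rspo2* and *Rspo3* made up 32.1% ± 3.95 and 48.8% ± 3.05 of the sum in CD34hi libraries and 1.65% ± 1.09 and 9.09% ± 7.21 in CD34lo libraries. The summed RPKM of all 4 ligands ranged from 8.53 to 17.2 in CD34lo and from 4.56 to 5.60 in CD34hi libraries. In these libraries the amount and the mixture of R-spondin transcripts thus differed, and neither the sums nor the shares were tested.

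**Figure D2:**
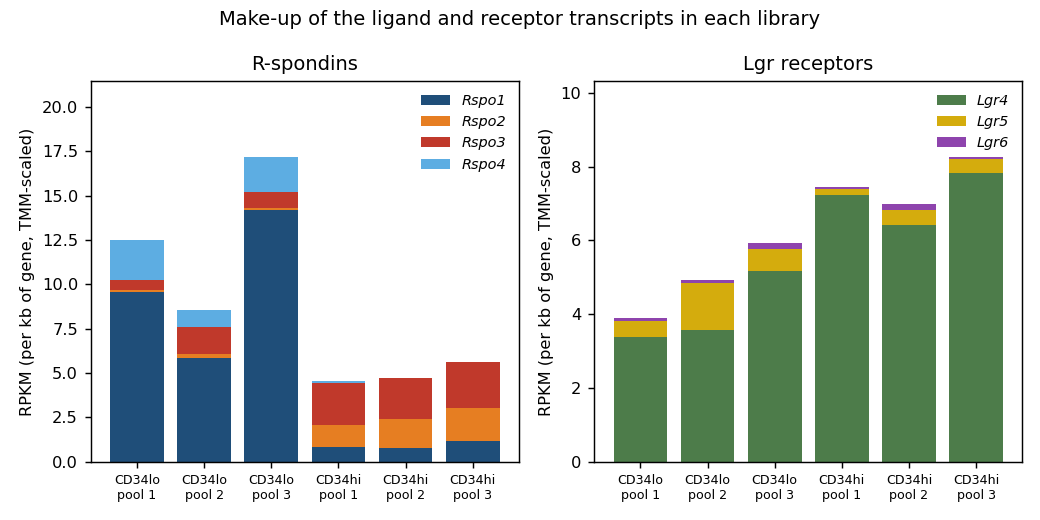
Stacked RPKM of the 4 R-spondins (left) and the 3 Lgr receptors (right) in each library (x axis); each colored segment is 1 gene and the bar height is the sum. The CD34lo ligand bars (8.53 to 17.2 RPKM) are mostly *Rspo1* and the CD34hi bars (4.56 to 5.60 RPKM) mostly *Rspo3* and *Rspo2*, while *Lgr4* fills most of every receptor bar.

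*Lgr4* (gene 107515, chromosome 2, 109917647 to 110014257), the most widely expressed of the R-spondin receptors, was the main receptor transcript in both populations and was higher in CD34hi. It had 36.6, 32.5 and 39.5 CPM in the CD34hi libraries and 17.1, 18.1 and 26.2 CPM in the CD34lo libraries of pools 1, 2 and 3. The populations did not overlap, and the fold within a pool was 2.14, 1.79 and 1.51. The log2 fold change was 0.82 (SE 0.18, adjusted p = 0.00677 in edgeR). Without pool 1 it was 0.72 and did not pass (adjusted p = 0.0540 in edgeR), and it passed in the other 17 alternatives. Per length, *Lgr4* took 94.5% ± 2.58 of the summed Lgr RPKM in CD34hi and 82.3% ± 8.21 in CD34lo libraries (SD, n = 3).

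*Lgr5* (gene 14160, chromosome 10, 115450314 to 115587780), a marker of adult epithelial stem cells in several organs, was low in both populations. It had 2.10, 5.93 and 2.73 CPM in the CD34lo libraries and 0.783, 1.88 and 1.87 CPM in the CD34hi libraries of pools 1, 2 and 3. Every CD34lo library was above every CD34hi library, although the CD34lo library of pool 2 was far above the other two. The log2 fold change was -1.24 (SE 0.47, adjusted p = 0.0694 in edgeR), which missed the threshold. With the mouse pool as a block, the same comparison gave -1.21 (SE 0.29) and passed with an adjusted p = 0.00867 in edgeR, a fit in which 40.5% of all genes were called and 7 of the 8 tested module genes passed. It also passed without CD34lo replicate 1 (-1.49, adjusted p = 0.0463 in edgeR) and in DESeq2 (-1.24, adjusted p = 0.0220). Without CD34lo replicate 2 the log2 fold change was -0.68 with an adjusted p = 0.244 in edgeR.

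*Lgr6* (gene 329252, chromosome 1, 134986353 to 135105276), which marks stem cells of the hair follicle, was near the limit of the test. It had 0.295, 0.288 and 0.579 CPM in CD34lo libraries and 0.224, 0.635 and 0.154 CPM in CD34hi libraries, from 7 to 23 counts each. The populations overlapped, and the direction differed between pools. The log2 fold change was -0.21 (SE 0.62, adjusted p = 0.821 in edgeR), and it turned positive in 4 of the fits on fewer libraries.

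*Znrf3* (gene 407821, chromosome 11, 5276329 to 5444847), the ligase that R-spondins remove and itself a known target of Wnt signaling, had the smallest spread relative to its mean of the 9 genes, in both populations. Its CD34lo libraries had 13.3, 12.4 and 12.8 CPM and its CD34hi libraries 5.66, 6.15 and 5.69 CPM in pools 1, 2 and 3. The CD34lo level was 2.35, 2.02 and 2.25 times the CD34hi level within the pools. The means were 12.8 ± 0.446 CPM (SD, n = 3) and 5.83 ± 0.278 CPM (SD, n = 3), a log2 fold change of -1.14 (SE 0.13, adjusted p = 0.000263 in edgeR). Over its 18 alternatives the log2 fold change stayed between -1.20 and -1.06.

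*Rnf43* (gene 207742, chromosome 11, 87663087 to 87735539), the partner ligase of *Znrf3* in intestinal stem cells, had 3, 4 and 4 counts in the CD34lo libraries and 9, 5 and 5 counts in the CD34hi libraries. These are 0.0553, 0.144 and 0.129 CPM against 0.201, 0.138 and 0.110 CPM, and the populations overlapped. The ratio of CD34hi to CD34lo over the summed counts (19 against 11) was 1.55, with a 95% interval of 0.700 to 3.60 (exact binomial, counting error only). An exact two-sided permutation test over the libraries gave p = 0.5, where 3 libraries against 3 cannot go below 0.1. The counting interval thus held ratios on both sides of 1. Per length, *Znrf3* made up 98.8% ± 0.561 of the summed ligase RPKM in CD34lo and 96.4% ± 1.16 in CD34hi libraries (SD, n = 3).

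**Figure D3:**
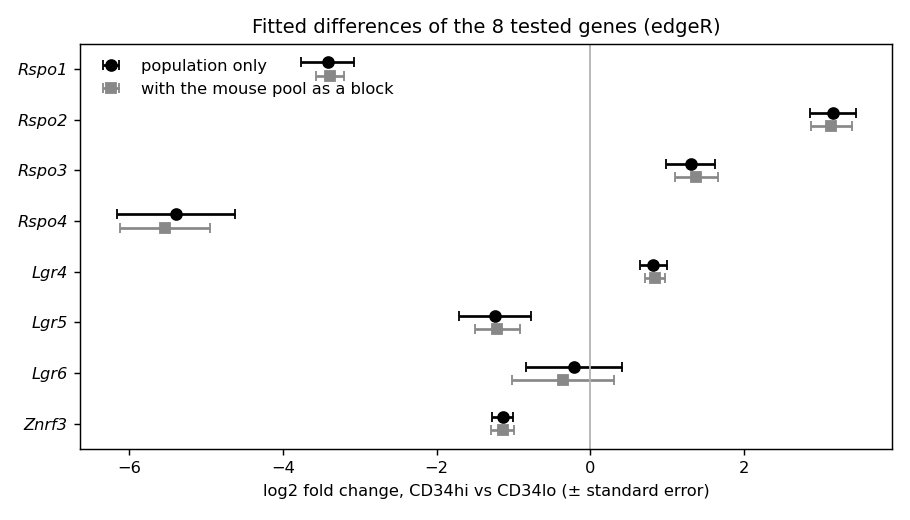
Log2 fold change of CD34hi vs CD34lo (x axis, ± SE) of the 8 tested genes, fitted in edgeR by population only (black circles) and with the mouse pool as a block (grey squares). *Rspo1*, *Rspo4*, *Lgr5* and *Znrf3* lie left of 0 and *Rspo2*, *Rspo3* and *Lgr4* right of 0 in both fits, and the SE of *Lgr5* narrows from 0.47 to 0.29 with the block.

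Across the module, per length, the ligand *Rspo1* was the most abundant transcript in CD34lo libraries (9.85 RPKM), above *Lgr4* (4.04 ± 0.988 RPKM) and *Znrf3* (2.04 ± 0.0708 RPKM), with no overlap between these neighbors. *Znrf3* and *Rspo4* overlapped in CD34lo libraries, as did *Rspo3* and *Lgr5*, and *Rspo2* and *Lgr6*. In CD34hi libraries *Lgr4* led with 7.15 ± 0.701 RPKM, above *Rspo3* and *Rspo2* without overlap. *Znrf3* (0.925 ± 0.0441 RPKM) and *Rspo1* (0.916 RPKM) overlapped in CD34hi, as did the neighbors from *Lgr5* down to *Rnf43*.

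Of the luminal epithelial list, *Epcam*, *Krt8*, *Krt18* and *Elf5* overlapped between the populations and did not pass, and *Epcam* was at 4.82 CPM in CD34lo and 5.96 CPM in CD34hi. The fibroblast, pericyte and Schwann cell lists moved in the same direction as *Rspo1*, *Rspo4* and *Znrf3*, and their part in these results was not tested. The sort had depleted cells positive for CD31, CD45 or TER-119. The epithelial, endothelial, leukocyte and keratinocyte lists summed higher in CD34hi, the direction of *Rspo2*, *Rspo3* and *Lgr4*, and their part was not tested. *Oxtr* set the basal sum (10.5 CPM in CD34hi, 0.296 in CD34lo), while *Krt5*, *Krt14*, *Krt17* and *Trp63* overlapped and did not pass. *Cd3e* set the leukocyte sum (14.9 and 3.78 CPM). *Cd68* (2.04 and 3.32 CPM), which did not pass, and the untested *Ptprc* and *Itgam* had higher means in CD34lo. Within the endothelial list, *Pecam1*, the gene of CD31, *Cdh5* and *Emcn* went the other way, the direction of *Rspo1* and *Rspo4*, with log2 fold changes of -1.14, -1.29 and -1.33. The libraries were made with a kit that does not mark strand, and the GENCODE M21 annotation places the antisense genes *Gm12930*, *Gm48159* and *Rspo4os* over *Rspo1*, *Rspo3* and *Rspo4*, so reads of these RNAs cannot be told apart from those of the ligand genes. The genes of the count table that overlap *Rspo3*, *Lgr5* or *Rnf43* had at most 3 counts in total.

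The receptors that the module acts on were compared next. Of 12 Frizzled and Lrp genes, all tested, 6 were higher in CD34lo, 1 was higher in CD34hi and 5 did not pass, where 18.7% of all genes tested were called higher in CD34lo and 16.9% in CD34hi. The median log2 fold change was -0.65, against -0.0064 over all genes tested. The co-receptor gene *Lrp5* had 77.0, 82.4 and 77.0 CPM in CD34lo and 26.3, 28.8 and 37.4 CPM in CD34hi libraries, a log2 fold change of -1.35 (SE 0.15, adjusted p = 0.000158 in edgeR). *Lrp6* changed less, with a log2 fold change of -0.75 (adjusted p = 0.00631 in edgeR), and did not pass without pool 2 (-0.56, adjusted p = 0.0587 in edgeR). Among the Frizzled genes called lower in CD34hi, *Fzd1* had the largest difference, with a log2 fold change of -2.04, followed by *Fzd3* (-1.52), *Fzd5* (-0.71) and *Fzd7* (-0.55). *Fzd9*, with at most 24 counts in a library, had a log2 fold change of -1.67 that did not pass (adjusted p = 0.135 in edgeR). *Fzd7* had an adjusted p = 0.0385 in edgeR and did not pass without pool 1 or 2, nor without CD34hi replicate 1 or 2 or CD34lo replicate 2 or 3 (-0.58 to -0.41, adjusted p = 0.0633 to 0.191). *Fzd10* was the exception among the calls, with 14.7, 21.4 and 7.87 CPM in CD34hi and 4.17, 2.34 and 5.66 CPM in CD34lo libraries and a log2 fold change of 1.85 (adjusted p = 0.00696 in edgeR). It was 1.21 without pool 2 and 2.44 without pool 3, and passed in both. With the mouse pool as a block, 2 of these genes were higher in CD34hi and 7 in CD34lo. That fit called 40.5% of all genes tested. The calls gained were *Fzd2* (log2 fold change 0.35, adjusted p = 0.0456) and *Fzd8* (-0.45, adjusted p = 0.0383), both in edgeR with the block.

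Genes known as feedback inhibitors or targets of Wnt signaling were compared as well. Of 12 listed genes, 8 were tested, 5 were higher in CD34lo, 1 was higher in CD34hi and 2 did not pass, against 18.7% and 16.9% called in these directions over all genes. The median log2 fold change of those tested was -1.98. *Lef1*, *Sp5*, *Notum* and *Ascl2* were not tested, with 3, 12, 61 and 50 counts over all libraries. *Bambi* (-0.08) and *Wif1* (-1.56) did not pass. *Axin2*, a widely used readout of the pathway, had 33.8, 45.0 and 44.7 CPM in CD34lo and 19.8, 23.2 and 28.8 CPM in CD34hi libraries. The populations did not overlap, and the log2 fold change was -0.78 (SE 0.17, adjusted p = 0.00799 in edgeR), though without pool 2 it was -0.69 with an adjusted p = 0.0836 in edgeR. The Dishevelled-binding inhibitors *Nkd1* and *Nkd2* had log2 fold changes of -2.40 and -3.65, the transcription factor gene *Tcf7* one of -4.76, and the receptor gene *Tnfrsf19*, also known as Troy, one of -6.59. *Tcf7* passed the filter on low counts only through its CD34lo libraries. *Tnfrsf19* had 33.7, 47.6 and 52.7 CPM in CD34lo and 0.380, 0.524 and 0.485 CPM in CD34hi libraries. *Apcdd1*, which encodes an inhibitor at the membrane, went the other way, with 116, 139 and 119 CPM in CD34hi and 36.2, 60.8 and 58.1 CPM in CD34lo libraries and a log2 fold change of 1.27 (adjusted p = 0.00116 in edgeR).

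A list of 12 partners held proteoglycans that bind R-spondins, intracellular factors that act with the ligases or with Lgr4, and other ligands of Lgr4. It also held the BMP receptor gene *Bmpr1a*. Of the 12 genes, 11 were tested, 3 were higher in CD34lo (against 18.7% of all genes), 8 did not pass in edgeR, and the median log2 fold change was -0.03. No gene of this list was called higher in CD34hi in edgeR, and 1 gene was called higher in limma-voom and in DESeq2. The populations did not overlap for 7 of the 11 tested genes, against 50.1% of all genes tested. Of those that did not pass, 3 had CD34hi libraries wholly above the CD34lo libraries. *Csnk1a1* had the reverse order and did not pass either (adjusted p = 0.110 in edgeR). The syndecan gene *Sdc1* had 336, 131 and 286 CPM in CD34lo and 31.9, 21.2 and 29.8 CPM in CD34hi libraries, a log2 fold change of -3.18 (standard error, SE, 0.34; adjusted p = 0.000149 in edgeR). *Sdc4*, which encodes a syndecan known to bind Rspo3, had a log2 fold change of -0.96 (adjusted p = 0.0112 in edgeR), and -0.94 with an adjusted p = 0.0516 without pool 1. *Tnfsf11*, the gene of RANKL, which is also a ligand of Lgr4, had a log2 fold change of -2.80 (adjusted p = 0.0255 in edgeR) at 0.831 CPM in CD34lo and 0.124 CPM in CD34hi, and was lost without pool 1 or 3, CD34hi replicate 1 or 3, or CD34lo replicate 1 (-3.00 to -1.70, adjusted p = 0.0583 to 0.175 in edgeR). *Tnfsf11* passed the filter on low counts only through its CD34lo libraries. *Ndp*, the gene of norrin, had between 1 and 17 counts per library and was not tested.

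**Figure D4:**
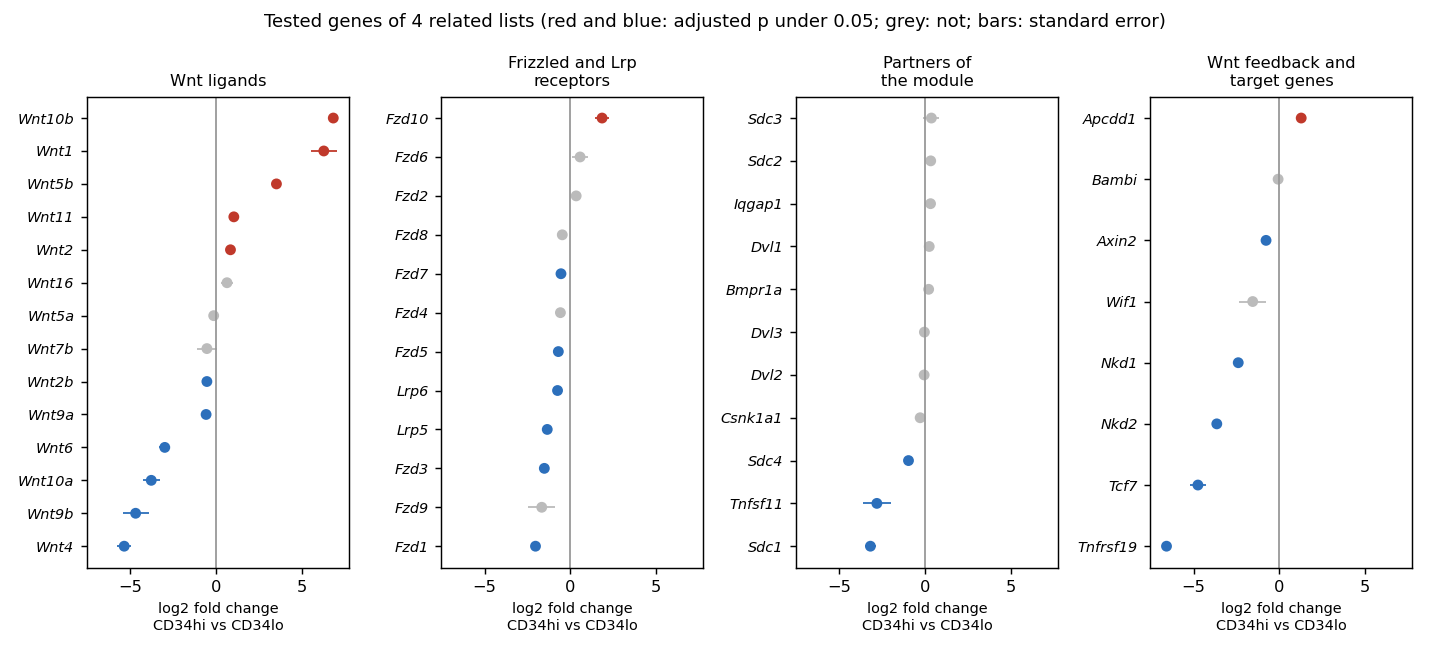
Log2 fold change of CD34hi vs CD34lo (x axis, bars give the SE) for the tested genes of 4 related lists, sorted within each list (y axis); red and blue mark genes higher in CD34hi and CD34lo at an adjusted p-value under 0.05, and grey marks the rest. Wnt ligands are called on both sides (5 and 6), while Frizzled and Lrp genes (1 and 6) and feedback and target genes (1 and 5) are called mostly on the CD34lo side.

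The genes whose profile over the 6 libraries was most like that of a called module gene were ranked by the root mean square difference of log2 CPM after each gene was centered on its own mean. For *Rspo1*, they were *St8sia2*, *Alx4* and *Gprc5c*, with differences of 0.146, 0.229 and 0.231 against a standard deviation of 1.71 for *Rspo1* itself. *Lims2*, *Irx1* and *Ly6c1* were nearest to *Rspo2* (0.109, 0.123 and 0.140), and *Adap1*, *Ablim1* and *Hnmt* to *Rspo3* (0.126, 0.127 and 0.128). The Wnt ligand gene *Wnt4* was nearest to *Rspo4*, at 0.419, ahead of *Col26a1* (0.432) and *Kif26b* (0.456). *Ammecr1*, *Fam174a* and *Mss51* were nearest to *Lgr4* (0.0571, 0.0671 and 0.0706). For *Znrf3*, the nearest was *S100b* (0.0304), a gene of the Schwann cell list, with 12.9, 12.4 and 12.4 CPM in CD34lo and 5.66, 5.80 and 5.67 CPM in CD34hi libraries, followed by *Ece2* (0.0674) and *Trim59* (0.0746).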

How the data were processed

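Each population of each mouse pool gave 1 library. The authors prepared TruSeq RNA v2 libraries from RNA of sorted cells, used GRCm38/mm10 as the genome, and their notes name Rsubread 2.2.6. The deposited table gives raw gene counts as whole numbers for each library, not normalized, beside gene lengths in bases. The annotation, strand setting and handling of multi-mapping reads are not given in the sources used here. Symbols came from a RefSeq table (GRCm38.p6; 25275 of 27179 genes matched).

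The model was fitted by population with edgeR 4.0.16 under R 4.3.3: filterByExpr (15219 genes kept), TMM factors (0.967 to 1.04), and the quasi-likelihood test, and Benjamini-Hochberg adjusted p-values across all tested genes, with 0.05 as the threshold. Each SE was obtained from the size of the log2 fold change over the root of its F statistic, and a prior count of 2 went into log2 CPM. The limit that a count of 0 allows (3 counts, counting error only) was 0.0553 to 0.108 CPM per library, with TMM factors, which also scaled the count ratios. The scripts were tested on simulated data. The alternatives were limma-voom (limma 3.58.1), DESeq2 1.42.0, RLE and upper-quartile factors, no filter, at least 10 counts in every library, thinned counts, a replicate block, each pool or library left out, and plain library totals for RPKM. Same-numbered libraries come from the same pool of mice, and Pearson's r between their deviations from the population means was 0.279, 0.0844 and 0.243 over 15219 genes, which are not independent. The blocked value is given beside a result where it changed the call.

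The genes of the module and the lists were chosen with earlier results of these data known. Named are all 9 module genes, called genes of the 4 related lists, *Axin2*, *Lrp5*, *Lrp6* and *Ndp*, the 3 most similar genes (mean log2 CPM of at least 0) for each called module gene, and marker lists. Gene names that the rule did not give, such as markers set beside a result, were chosen after their values were seen.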

Additional observations from a re-analysis of the deposited data

How the results depend on the processing

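Of 141 values of the 8 tested module genes under the alternatives, 130 kept their direction and their side of the threshold, 3 lost and 4 gained a call, and 4 reversed. The reversals were all of *Lgr6*, whose log2 fold change of -0.21 ranged from -1.16 to 0.53 when a pool or single library was removed. *Rspo1*, *Rspo2*, *Rspo4* and *Znrf3* passed in every alternative that gave a value. *Rspo4* and *Lgr6* gave none with at least 10 counts in every library, nor *Lgr6* with thinned counts, and *Rnf43* gave one only without the filter (log2 fold change 0.53, SE 0.87, adjusted p = 0.693 in edgeR). Of 481 values of 27 called genes of the related lists, 457 were unchanged in direction and call and 24 lost the call, all with a pool or library removed.

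Module genes called higher in CD34hi numbered 3, and 1 to 3 with a pool or library left out (1 without pool 1, when *Rspo3* and *Lgr4* fell short); those higher in CD34lo numbered 3, and 2 to 4 over all alternatives. The replicate block gave 2 Frizzled and Lrp genes higher in CD34hi in place of 1, in edgeR and in limma-voom. Those higher in CD34lo numbered 7 with the block in edgeR and 8 in limma-voom, in place of 6. The genes gained in edgeR beside *Lgr5* were *Fzd2* and *Fzd8*, and the block changed no other call of the module. In edgeR the block called 2980 of all genes higher in CD34hi and 3181 higher in CD34lo. Partners higher in CD34hi numbered 0, but 1 in limma-voom, in limma-voom with the replicate block and in DESeq2, and 0 to 1 with a pool or library left out; those higher in CD34lo numbered 3, and 1 to 3 in those fits. Over all genes, 1608 to 2456 were higher in CD34hi and 1860 to 2780 in CD34lo with a pool or library left out, against 2570 and 2841. The cause of these changes was not tested. The fits with a pool or library left out also held fewer samples. RPKM levels from plain library totals moved by less than 1 SD for all 9 genes in both populations. *Rnf43*, *Lgr6* and the CD34hi level of *Rspo4* rested on few counts, and the part of depth in this was not tested.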

Other observations

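The Wnt ligand genes, whose products the R-spondins enhance, were split between the populations like the R-spondins. Of 19 ligand genes, 14 were tested, 5 were higher in CD34hi, 6 were higher in CD34lo and 3 did not pass, with a median log2 fold change of -0.33 (over all genes tested, 16.9% were higher in CD34hi and 18.7% in CD34lo). *Wnt10b*, known as an inhibitor of adipocyte formation, had 72.4, 82.1 and 53.9 CPM in CD34hi and 0.609, 0.575 and 0.611 CPM in CD34lo libraries, a log2 fold change of 6.85 (SE 0.22, adjusted p = 1.45e-06 in edgeR). *Wnt1* had between 62 and 83 counts per CD34hi library and between 0 and 2 per CD34lo library. It passed the filter on low counts only through its CD34hi libraries. *Wnt5b*, *Wnt11* and *Wnt2* were also higher in CD34hi, with log2 fold changes of 3.53, 1.04 and 0.85. *Wnt11* did not pass without pool 2 (0.89, adjusted p = 0.0694 in edgeR). *Wnt4*, known as a mammary side-branching factor, had 42.5, 20.3 and 31.5 CPM in CD34lo and 1.27, 0.469 and 0.529 CPM in CD34hi libraries, a log2 fold change of -5.35 (SE 0.42, adjusted p = 3.02e-05 in edgeR). *Wnt9b*, *Wnt10a*, *Wnt6*, *Wnt9a* and *Wnt2b* were higher in CD34lo as well, with log2 fold changes of -4.69, -3.77, -2.99, -0.57 and -0.53 (*Wnt10a* -4.59 with thinned counts). *Wnt9b* and *Wnt10a* passed the filter on low counts only through their CD34lo libraries. *Wnt2b* did not pass when any 1 pool or any 1 CD34hi library was left out (adjusted p = 0.0545 to 0.130 in edgeR), nor *Wnt9a* without pool 1 or 2 or CD34hi replicate 1 (0.0504 to 0.109). The CD34lo library of pool 2, which had the lowest *Rspo1* and *Rspo4* of its population, also had the lowest *Wnt4* and *Wnt9b* (1.65 CPM against 14.2 in pool 1 and 10.2 in pool 3).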
